A study of Caenorhabditis elegans with 10 samples.

Results

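The superoxide dismutase and catalase genes of Caenorhabditis elegans comprise sod-1, sod-2, sod-3, sod-4, sod-5, ctl-1, ctl-2 and ctl-3. They were taken by symbol from the deposited expression table, and all 8 were found among its 40857 gene symbols. Where a symbol had several transcript entries, the entry with the highest mean FPKM (fragments per kilobase of transcript and per M reads) stood for the gene. Membership goes by symbol and not by measured values.

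The libraries hold polyadenylated RNA of whole nematodes at the L4 and preadult stage, about 3000 worms each, per the labels' protocols. The genotypes were daf-16(mu86);daf-2(e1370), called the daf-16 double mutant here, and daf-2(e1370);math-33(tm3561), called the math-33 double mutant here. The others were daf-2(e1370), math-33(tm3561) and the wild type N2. Both double mutants carry the same daf-2 allele as the daf-2 strain. Each of the 5 genotypes either stayed at 15 °C or spent its last 22 hr at 25 °C, from the L3/L4 stage on, which gave 10 libraries with 1 library per group. Differences between 2 libraries therefore have no replicate check and carry no p-value. Each stated interval is an exact 95% interval from read pairs, taken as the recovered reads divided by 2 and rounded up. It covers counting error only. The worms of a library are a pool of a partly synchronized population, so a library gives 1 value per culture. In whole worms, fewer cells of a type and less RNA per cell cannot be told apart.

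Superoxide dismutases convert the superoxide radical, a by-product of respiration, into hydrogen peroxide, and catalases break hydrogen peroxide down to water and oxygen. In worms the dismutases are divided by compartment. SOD-1 and SOD-5 are cytosolic copper/zinc enzymes, SOD-2 and SOD-3 are manganese enzymes of the mitochondrial matrix, and SOD-4 is an extracellular or membrane-bound copper/zinc enzyme. CTL-2 is the peroxisomal catalase and CTL-1 a cytosolic one. The receptor for insulin-like ligands is DAF-2, and reduced DAF-2 signalling lets the FOXO transcription factor DAF-16 enter the nucleus. The sod-3 gene is a widely used reporter of DAF-16 activity. MATH-33 is a deubiquitylating enzyme.

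Depth was 25.21 to 35.22 M reads per library (12.6 to 17.6 M read pairs). The math-33 entry lay at 13.9 FPKM in the math-33 double mutant and 14.1 FPKM in the math-33 strain at 25 °C, against 59.8 FPKM in daf-2 and 79.3 FPKM in N2. At 15 °C it lay at 14.4 FPKM in the math-33 double mutant and 15.9 FPKM in math-33, against 71.3 FPKM in daf-2 and 78.5 FPKM in N2. The daf-16 symbol had 8 entries. A long entry held 0 reads beyond those of the shortest entry in both libraries of the daf-16 double mutant, against 188 to 356 such reads in the other 8 libraries. The shortest entry was read in every library and checks nothing about the deletion. The daf-2(e1370) allele is a point mutation, which expression values cannot check.

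The genes stood on 4 chromosomes, given here by the coordinates of the deposited table, for which the submitters' processing notes name the build ce10. The cytosolic sod-1 lay at chrII:6972834-6973441 on the minus strand and sod-5 at chrII:4417685-4419013 on the plus strand. The mitochondrial sod-2 lay at chrI:8434550-8435671 and sod-3 at chrX:17092694-17094023, both on the plus strand. The extracellular sod-4 lay at chrIII:9497092-9500113 on the minus strand. The catalases formed a tandem cluster on the minus strand of chromosome II, with ctl-2 at chrII:14299581-14301944, ctl-1 at chrII:14303545-14306177 and ctl-3 at chrII:14307778-14310667. Gaps of 1600 bases separated the catalase entries, and no other symbol of the table lay inside the 11087 bases they span. The spans of the entries equalled the coding spans of the same genes in the WBcel235 annotation for all but sod-1, whose shorter entry stood for the gene, so untranslated ends were not counted. The sources used here do not give how reads shared by similar sequences were assigned, so the split among the neighbouring catalases, and between sod-2 and sod-3, is uncertain.

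The members were expressed over a wide range. The cytosolic sod-1 was the highest dismutase in all 10 libraries, with a median of 129 FPKM, and the mitochondrial sod-2 had a median of 62.9 FPKM. The peroxisomal ctl-2 had a median of 57.8 FPKM, and the other catalases, ctl-1 and ctl-3, had medians of 3.43 and 2.81 FPKM. The remaining medians were 8.20 FPKM for sod-4, 5.36 FPKM for sod-3 and 0.344 FPKM for sod-5. Counts over all genes used those that reached 1 FPKM in 2 or more libraries, which left 16085 kept genes. Of the 8 members, 7 passed this filter, each with at least 1 FPKM in all 10 libraries. The exception was sod-5, which reached 1 FPKM in 1 library, daf-2 at 25 °C, and was left out of the counts of members.

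Of the 8 members, 7 had their highest value in daf-2 at 25 °C, as the plot of levels by library shows. Of the 7 that passed the filter 6 did, while 16.8% of all kept genes had their maximum in that library. The exception was sod-2, whose highest value was in math-33 at 25 °C.

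**Figure D1:**
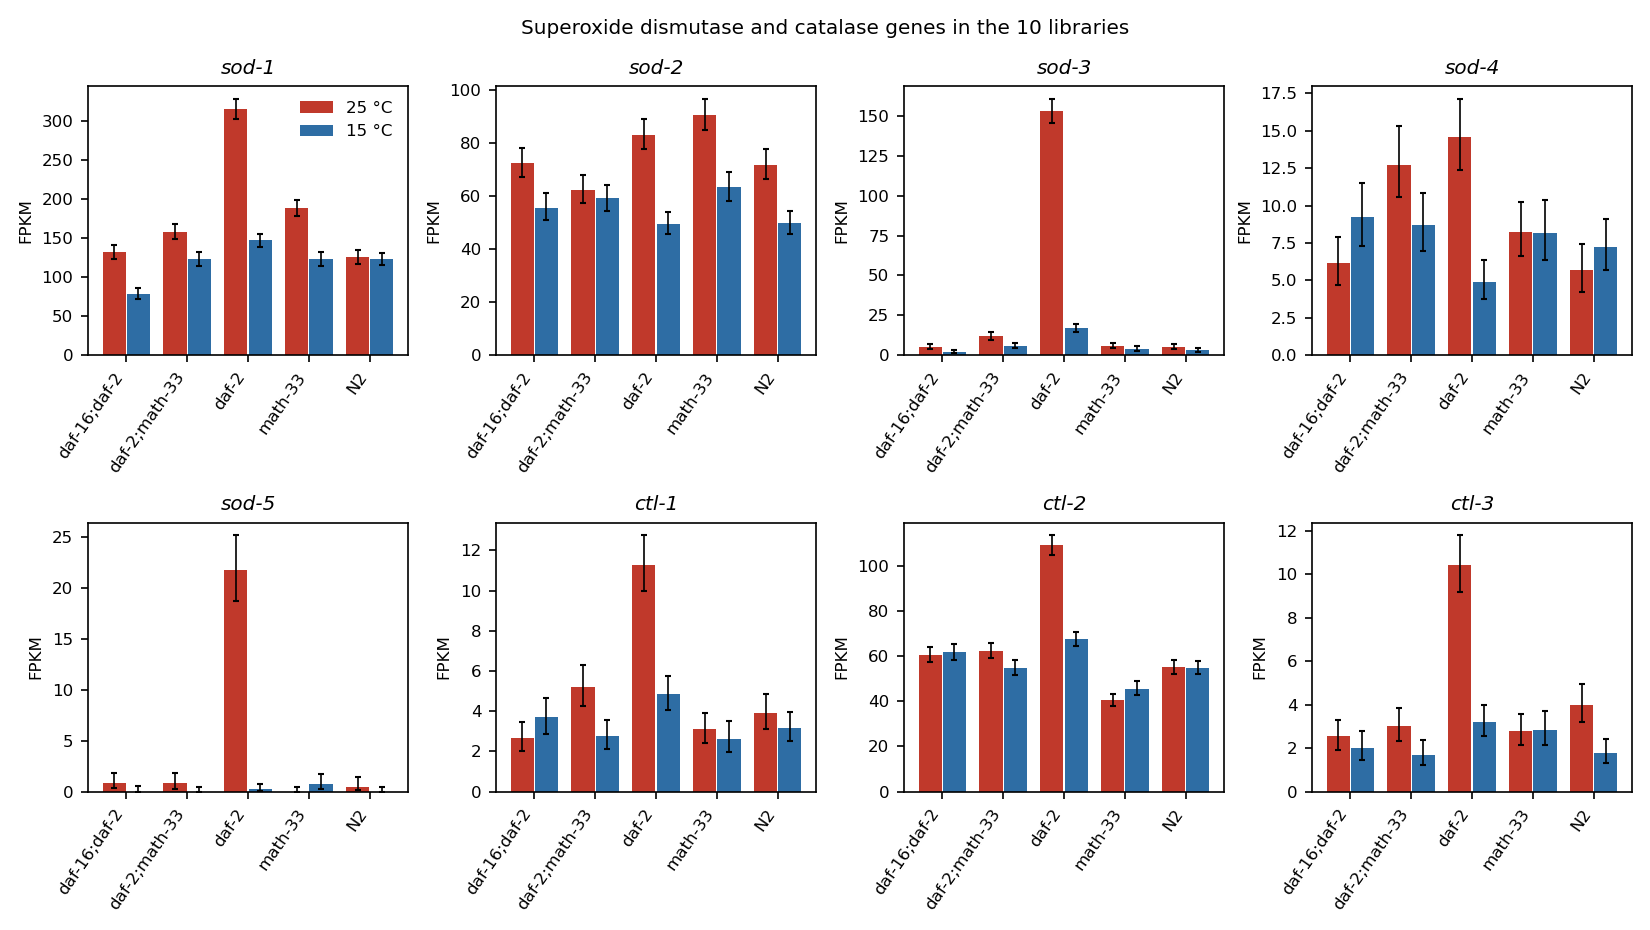
FPKM of each gene (vertical axes, one scale per panel) in the 5 genotypes (horizontal axis) at 25 °C (red) and 15 °C (blue). Bars are single libraries and error bars are exact 95% Poisson intervals that cover counting error only. The daf-2 library at 25 °C is highest in every panel except that of sod-2, where math-33 at 25 °C reached 90.7 FPKM.

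Among the mitochondrial enzymes, sod-3 varied most and sod-2 little. The sod-3 level at 25 °C was 5.02 FPKM in the daf-16 double mutant, 11.9 FPKM in the math-33 double mutant, 153 FPKM in daf-2, 5.90 FPKM in math-33 and 5.15 FPKM in N2. The sod-3 level at 15 °C was 2.18 FPKM in the daf-16 double mutant, 5.57 FPKM in the math-33 double mutant, 17.0 FPKM in daf-2, 4.02 FPKM in math-33 and 3.04 FPKM in N2. Both daf-2 libraries thus stood above all others. The math-33 double mutant at 25 °C came next, with an interval of 9.78 to 14.4 FPKM that lay above the intervals of the 7 libraries below it. Those 7 libraries, in their order of level, each had an interval that overlapped the next.

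The other manganese enzyme gene, sod-2, was at 72.4 FPKM in the daf-16 double mutant, 62.5 FPKM in the math-33 double mutant, 83.1 FPKM in daf-2, 90.7 FPKM in math-33 and 71.9 FPKM in N2 at 25 °C. At 15 °C sod-2 was at 55.7 FPKM in the daf-16 double mutant, 59.1 FPKM in the math-33 double mutant, 49.6 FPKM in daf-2, 63.4 FPKM in math-33 and 49.9 FPKM in N2. The sod-2 levels of the 10 libraries thus lay between 49.6 and 90.7 FPKM, and no library stood apart. Of the mitochondrial dismutase FPKM (sod-2 plus sod-3), sod-3 made up 6.48% in the daf-16 double mutant, 16.04% in the math-33 double mutant and 64.8% in daf-2 at 25 °C. At 15 °C sod-3 made up 3.76% in the daf-16 double mutant, 8.62% in the math-33 double mutant and 25.5% in daf-2. In daf-2 at 25 °C, unlike in the other 9 libraries, sod-3 exceeded sod-2.

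Both manganese genes overlap a gene on the opposite strand. The annotation places 65 exon bases of sod-3 opposite C08A9.3, which lay between 0 and 1.65 FPKM, with its highest value in daf-2 at 25 °C and at most 0.233 FPKM elsewhere. It places 21 exon bases of sod-2 opposite dpt-1, which lay between 43.8 FPKM in daf-2 at 15 °C and 63.0 FPKM in math-33 at 25 °C. The lowest and highest sod-2 values were in the same libraries. The libraries were stranded, per the labels' protocols, but the sources used here do not give whether counting used the strand. Reads of the shared bases therefore cannot be told apart.

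Among the cytosolic copper/zinc enzymes, sod-1 was abundant and sod-5 was at or near 0 outside 1 library. At 25 °C sod-1 was at 132 FPKM in the daf-16 double mutant, 158 FPKM in the math-33 double mutant, 315 FPKM in daf-2, 188 FPKM in math-33 and 125 FPKM in N2. At 15 °C sod-1 was at 78.7 FPKM in the daf-16 double mutant, 123 FPKM in the math-33 double mutant, 147 FPKM in daf-2, 123 FPKM in math-33 and 123 FPKM in N2. Its lowest value was thus in the daf-16 double mutant at 15 °C, with an interval of 71.8 to 86.2 FPKM that lay below those of the other libraries.

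The minor cytosolic gene, sod-5, was at 21.8 FPKM in daf-2 at 25 °C, from 180 read pairs, with an interval of 18.7 to 25.2 FPKM. At 25 °C it was at 0.888 FPKM in the daf-16 double mutant, 0.820 FPKM in the math-33 double mutant, 0 FPKM in math-33 and 0.475 FPKM in N2. At 15 °C it was at 0.214 FPKM in daf-2 and 0.747 FPKM in math-33, and at 0 FPKM in the daf-16 double mutant, the math-33 double mutant and N2. All libraries but daf-2 at 25 °C held between 0 and 7 read pairs. In the 4 libraries at 0, the floor of 3 read pairs stood at 0.355 to 0.445 FPKM, and the exact intervals reached 0.437 to 0.547 FPKM. Ratios among these 9 libraries therefore rest on few reads.

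The extracellular sod-4 was highest in daf-2 at 25 °C and lowest in daf-2 at 15 °C. At 25 °C sod-4 was at 6.13 FPKM in the daf-16 double mutant, 12.7 FPKM in the math-33 double mutant, 14.6 FPKM in daf-2, 8.21 FPKM in math-33 and 5.69 FPKM in N2. At 15 °C sod-4 was at 9.21 FPKM in the daf-16 double mutant, 8.69 FPKM in the math-33 double mutant, 4.91 FPKM in daf-2, 8.19 FPKM in math-33 and 7.26 FPKM in N2. The other 8 libraries thus lay between the daf-2 values. Intervals of sod-4 overlapped between daf-2 (12.4 to 17.1 FPKM) and the math-33 double mutant (10.6 to 15.3 FPKM) at 25 °C. The gene had 52 to 150 read pairs per library.

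Among the catalases, ctl-2 held 83.4 to 92.5% of the summed catalase FPKM in each library. At 25 °C ctl-2 was at 60.6 FPKM in the daf-16 double mutant, 62.3 FPKM in the math-33 double mutant, 109 FPKM in daf-2, 40.5 FPKM in math-33 and 54.98 FPKM in N2. At 15 °C ctl-2 was at 61.7 FPKM in the daf-16 double mutant, 54.9 FPKM in the math-33 double mutant, 67.5 FPKM in daf-2, 45.6 FPKM in math-33 and 54.7 FPKM in N2. The daf-2 strain was highest and math-33 lowest at both temperatures.

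The neighbouring copies were low but followed daf-2 at 25 °C more steeply. The cytosolic catalase gene ctl-1 was at 2.67 FPKM in the daf-16 double mutant, 5.19 FPKM in the math-33 double mutant, 11.3 FPKM in daf-2, 3.10 FPKM in math-33 and 3.90 FPKM in N2 at 25 °C. At 15 °C ctl-1 lay between 2.64 FPKM in math-33 and 4.84 FPKM in daf-2. The last gene of the cluster, ctl-3, was at 2.55 FPKM in the daf-16 double mutant, 3.03 FPKM in the math-33 double mutant, 10.4 FPKM in daf-2, 2.80 FPKM in math-33 and 3.98 FPKM in N2 at 25 °C. At 15 °C ctl-3 lay between 1.69 FPKM in the math-33 double mutant and 3.21 FPKM in daf-2. Each thus separated daf-2 at 25 °C from the other 9 libraries, whose values were at most 5.19 FPKM for ctl-1 and 3.98 FPKM for ctl-3.

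The comparison of the daf-16 double mutant with daf-2 asks which of the daf-2 levels depend on daf-16. At 25 °C all 8 genes were lower in the daf-16 double mutant, and each counting interval of the ratio lay below 1. On the log2(FPKM + 1) scale, which understates differences of low genes, 5 of the 7 kept members were lower by at least 1 unit, against 7.06% of all kept genes. None was higher by that much, against 5.09% of all kept genes. The 5 were sod-1, sod-3, sod-4, ctl-1 and ctl-3. The median difference of the 7 was -1.25, beside 0 for all kept genes. The FPKM of sod-3 was 30.5-fold lower (22.7 to 41.0) and that of sod-5 24.5-fold lower (11.7 to 61.8). The catalase genes ctl-1 and ctl-3 were 4.22-fold (3.18 to 5.71) and 4.09-fold (3.06 to 5.54) lower, and ctl-2 was 1.80-fold lower (1.68 to 1.92). For sod-1 the difference was 2.39-fold (2.21 to 2.58), for sod-4 2.38-fold (1.75 to 3.27) and for sod-2 1.15-fold (1.04 to 1.27). The order of size thus put sod-3, sod-5, ctl-1 and ctl-3 first and sod-2 last. The shorter of the 2 sod-4 entries gave 1.98-fold, and the sod-1 entries gave nearly equal ratios.

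The comparison of the math-33 double mutant with daf-2 asks what loss of math-33 does to these genes when the receptor is impaired. At 25 °C all 8 were lower in the math-33 double mutant, and the interval of the ratio lay below 1 for all but sod-4. At the threshold of 1 log2 unit, 2 of the 7 kept members were lower, sod-3 and ctl-3, against 5.13% of all kept genes. For sod-1 and ctl-1 the differences were -0.99 and -0.99, just inside the threshold. The median difference was -0.99, beside 0.06 for all kept genes. The count was 4 when each library was centred on its median and 1 with a pseudocount of 5 FPKM in place of 1. The ratio was 12.8-fold lower for sod-3 (10.5 to 15.8) and 26.5-fold lower for sod-5 (11.95 to 73.2). It was 3.44-fold lower for ctl-3 (2.604 to 4.602), 2.17-fold lower for ctl-1 (1.72 to 2.74), 1.996-fold lower for sod-1 (1.85 to 2.15), 1.75-fold lower for ctl-2 (1.64 to 1.87) and 1.33-fold lower for sod-2 (1.196 to 1.48). The sod-4 level was 1.15-fold lower, with an interval of 0.891 to 1.47 that included 1.

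**Figure D2:**
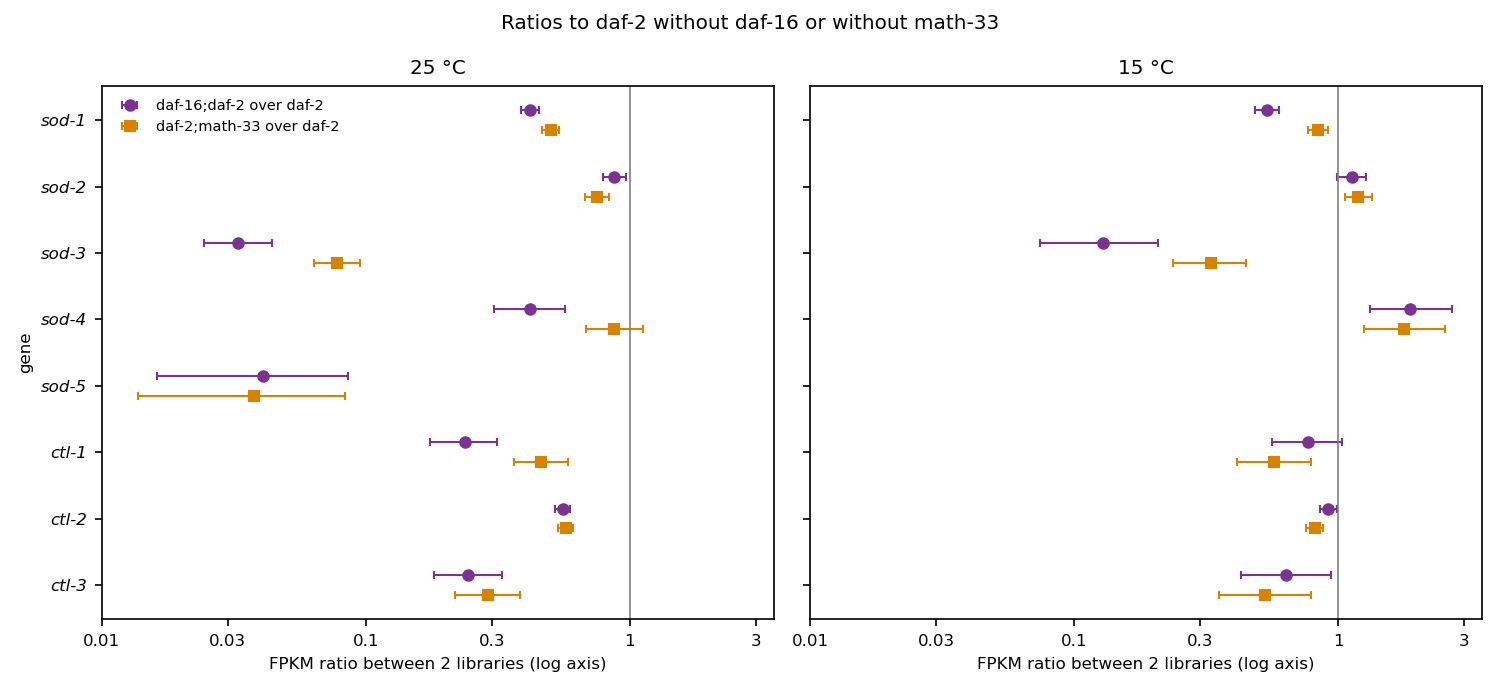
FPKM ratios on a log axis of the daf-16 double mutant to daf-2 (purple circles) and of the math-33 double mutant to daf-2 (orange squares) for each gene at 25 °C (left) and 15 °C (right). Error bars are exact 95% counting intervals of a ratio of 2 libraries, and the line marks 1. At 25 °C sod-3 and sod-5 lie farthest left, and at 15 °C, where sod-5 is not drawn, sod-4 lies right of 1 at 1.87 and 1.77.

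The same daf-2 library enters both comparisons at 25 °C. The double mutants themselves can be set side by side, the math-33 double mutant over the daf-16 double mutant. At 25 °C sod-3 was 2.38-fold higher (1.66 to 3.37), sod-4 2.07-fold higher (1.51 to 2.90), ctl-1 1.94-fold higher (1.41 to 2.73) and sod-1 1.199-fold higher (1.09 to 1.31) in the math-33 double mutant. The ratio was 1.19 for ctl-3 (0.820 to 1.73) and 1.03 for ctl-2 (0.952 to 1.11), and sod-2 was lower, at 0.863 (0.771 to 0.964). Of the 7 kept members 1, sod-3, was higher by at least 1 log2 unit, against 10.1% of all kept genes. The excess of daf-2 over the daf-16 double mutant was compared with that of the math-33 double mutant, as a share with no interval. At 25 °C the share was 77.7% for sod-4, 29.3% for ctl-1, 14.3% for sod-1, 6.12% for ctl-3, 4.67% for sod-3, 3.52% for ctl-2 and -0.33% for sod-5. For sod-2 at 25 °C the math-33 double mutant lay below the daf-16 double mutant. At 15 °C the share was 64.6% for sod-1 and 22.9% for sod-3. There the math-33 double mutant lay below the daf-16 double mutant for sod-4 and all 3 catalases. The interval of that ratio lay below 1 for ctl-2, at 0.890 (0.819 to 0.966). It included 1 for sod-4, ctl-1 and ctl-3. Also at 15 °C, daf-2 lay below the daf-16 double mutant for sod-2 and sod-4.

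Stage and tissue markers moved with these comparisons. At 25 °C the summed FPKM of 22 sperm genes was 707 in the daf-16 double mutant, 2280 in the math-33 double mutant, 486 in daf-2, 4392 in math-33 and 2317 in N2. The 5 vitellogenin genes found, which adult intestine expresses, summed to 4816 FPKM in the daf-16 double mutant, 6805 FPKM in the math-33 double mutant, 2772 FPKM in daf-2, 12311 FPKM in math-33 and 3984 FPKM in N2. The 10 molting genes summed to 1697 FPKM in the daf-16 double mutant, 960 FPKM in the math-33 double mutant, 1208 FPKM in daf-2, 177 FPKM in math-33 and 963 FPKM in N2. At 1 log2 unit, 20 of the 22 sperm genes and 5 of the 5 vitellogenin genes were higher in the math-33 double mutant than in daf-2 at 25 °C, against 1764 of the 16085 kept genes. Sums of 9 germline genes lay between 496 and 735 FPKM and those of 8 intestine genes between 3047 and 4870 FPKM at 25 °C. The intestine sums hide opposite differences. At 25 °C ges-1 was at 66.0 FPKM in daf-2, 23.9 FPKM in the daf-16 double mutant and 24.2 FPKM in the math-33 double mutant. For pept-1 the values were 54.3, 188 and 132 FPKM in the same order. No other intestine gene was 1 log2 unit apart in these comparisons. All markers found had reads in all 5 libraries at 25 °C. Their part in the differences of the dismutases and catalases was not tested.

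At 15 °C the ratios of both double mutants to daf-2 lay nearer to 1 than at 25 °C for sod-1, sod-3 and the catalases, while those of sod-4 and sod-2 lay above 1. Of the 7 kept members 1, sod-3, was lower by at least 1 log2 unit in the daf-16 double mutant than in daf-2, against 4.15% of all kept genes, and none was higher, against 5.43%. It was also the only kept member lower by that much in the math-33 double mutant, against 1.97% of all kept genes, and none was higher, against 8.80%. The sod-3 level was 7.79-fold lower in the daf-16 double mutant (4.81 to 13.5) and 3.05-fold lower in the math-33 double mutant (2.23 to 4.24) than in daf-2. For sod-4 the daf-16 double mutant was at 1.87 times the daf-2 level (1.31 to 2.69), and the math-33 double mutant was at 1.77 times the daf-2 level (1.25 to 2.54). For sod-2 the ratio to daf-2 was 1.12 in the daf-16 double mutant (0.992 to 1.27) and 1.19 in the math-33 double mutant (1.06 to 1.34). The daf-16 double mutant had 1.87-fold less sod-1 than daf-2 (1.67 to 2.08), and the math-33 double mutant had 1.196-fold less (1.09 to 1.31). Between the double mutants, sod-3 was 2.56-fold higher in the math-33 double mutant (1.47 to 4.65), the 1 member past the threshold, against 7.95% of all kept genes, and sod-1 was 1.56-fold higher (1.39 to 1.75). The catalases differed less at 15 °C, with ratios of 0.528 to 0.814 in the math-33 double mutant and of 0.633 to 0.915 in the daf-16 double mutant, both over daf-2.

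Set against the wild type at 25 °C, daf-2 was higher for all 8 genes, and each interval lay above 1. At 1 log2 unit 5 of the 7 kept members were higher, against 9.33% of all kept genes, and none was lower, against 9.28%. The median difference was 1.22, beside -0.03, and the count was 2 with a pseudocount of 5 FPKM. The 5 past the threshold with a pseudocount of 1 FPKM were sod-1, sod-3, sod-4, ctl-1 and ctl-3. The sod-3 level was 29.7-fold higher in daf-2 (22.0 to 40.2), and that of sod-5, from 180 and 4 read pairs, 45.8-fold higher (15.4 to 149). The other ratios of daf-2 over N2 at 25 °C were 2.89 for ctl-1, 2.62 for ctl-3, 2.57 for sod-4, 2.51 for sod-1, 1.98 for ctl-2 and 1.16 for sod-2. At 15 °C 1 member, sod-3, was higher by 1 log2 unit, with a 5.57-fold higher level in daf-2 (3.77 to 8.27), against 2.92% of all kept genes higher, and none was lower, against 2.85%.

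The daf-16 double mutant was also set against the wild type. At 25 °C 0 of the 7 kept members differed by 1 log2 unit between the daf-16 double mutant and N2, against 3.85% of all kept genes higher and 6.43% lower. The intervals of the ratio included 1 for all but 3 members. These were ctl-2 at 1.10 (1.02 to 1.19), ctl-1 at 0.685 (0.478 to 0.963) and ctl-3 at 0.641 (0.448 to 0.900). At 15 °C the count was also 0, against 4.18% higher and 2.90% lower, while sod-1 was at 0.639 of the N2 level (0.571 to 0.715) and ctl-2 at 1.13 (1.04 to 1.22).

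The math-33 strain against N2 compares loss of math-33 with an intact receptor. At 25 °C 0 of the 7 kept members differed by 1 log2 unit, against 5.25% of all kept genes higher and 7.16% lower. The sod-1 level was 1.501-fold higher in math-33 (1.37 to 1.64), sod-4 1.44-fold higher (1.02 to 2.09) and sod-2 1.26-fold higher (1.14 to 1.40). For sod-3 the ratio was 1.15 (0.761 to 1.70). The catalases ran the other way, with ctl-2 at 0.737 of the N2 level (0.676 to 0.805), ctl-3 at 0.704 (0.5003 to 0.975) and ctl-1 at 0.794 (0.566 to 1.10). At 15 °C the count was also 0, against 11.5% higher and 2.79% lower. There sod-2 was again higher in math-33, 1.27-fold (1.12 to 1.44), and ctl-2 again lower, at 0.832 (0.763 to 0.908), while sod-1 was at 1.0001 (0.907 to 1.10) and ctl-3 at 1.58 (1.04 to 2.40).

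A model fitted over all 10 libraries with genotype and temperature terms (limma on log2(FPKM + 1), 4 residual degrees of freedom) tests effects shared by both temperatures. No member passed a Benjamini-Hochberg adjusted p of 0.05 over the 16085 kept genes in any of the 6 genotype contrasts. In the contrast of the daf-16 double mutant with daf-2, where 0.0311% of all kept genes passed as lower and 0.00622% as higher, 4 members had an unadjusted p under 0.05, as did 12.2% of all kept genes. There sod-3 differed by -3.59 (SE 0.60, limma adjusted p = 0.162) and was lower in the daf-16 double mutant at both temperatures. In the contrast of the math-33 double mutant with daf-2, where 0.0124% passed as lower, 4 members had an unadjusted p under 0.05, as did 15.0% of all kept genes, and sod-3 differed by -2.51 (SE 0.60, limma adjusted p = 0.152). For daf-2 over N2, where 0% passed, the count at an unadjusted p under 0.05 was 5, beside 13.6% of all kept genes, and sod-3 differed by 3.40 (SE 0.60, limma adjusted p = 0.210). The contrasts of math-33 with N2, of the daf-16 double mutant with N2 and of the double mutants with each other had 0 members under an unadjusted 0.05, beside 18.3%, 7.35% and 12.2% of all kept genes in these contrasts. At the adjusted threshold, 0.348% of all kept genes passed as higher and 0.0933% as lower in math-33 against N2, 0% either way in the daf-16 double mutant against N2, and 0.00622% as higher and 0.0124% as lower in the math-33 double mutant against the daf-16 double mutant. The interaction term, the effect of math-33 loss with e1370 minus its effect without, had 0 members past the adjusted threshold, as 0% of all kept genes, and 2 under an unadjusted 0.05, beside 8.64% of all kept genes. These were sod-3 at -2.75 (SE 0.84, limma adjusted p = 0.545) and sod-1 at -0.92 (SE 0.34, limma adjusted p = 0.566). The fitted spread holds genotype-specific temperature responses together with differences between cultures and counting error, which cannot be told apart without replicates. Without the daf-2 library at 15 °C, sod-3 passed in 3 contrasts, with adjusted p-values of 0.0172 for the daf-16 double mutant against daf-2, 0.0231 for the math-33 double mutant against daf-2 and 0.00686 for daf-2 against N2. In that fit 169, 109 and 296 of all kept genes passed in the same 3 contrasts, and without the daf-2 library at 25 °C no member passed in them.

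Across genotypes, sod-1 and sod-2 rose at 25 °C. In the same model sod-1 was higher at 25 °C by 0.57 (SE 0.15, limma adjusted p = 0.0414) and sod-2 by 0.44 (SE 0.11, limma adjusted p = 0.0315), and both were higher at 25 °C in 5 of 5 genotypes. The counting interval lay above 1 in 4 of the 5 for each gene, the exceptions being N2 for sod-1, at 1.02 (0.926 to 1.12), and the math-33 double mutant for sod-2, at 1.06 (0.937 to 1.19). These were 2 of the 7 kept members, against 14.6% of all kept genes higher, and none of the 7 was lower, against 4.68%. The median of all kept genes differed between libraries by 0.169 in this contrast, and after each library was centred on its median neither gene passed. With any 1 of the 10 libraries left out, 0 or 1 member passed. The difference of sod-3 was larger, 1.21, but missed the threshold in this fit (SE 0.38, limma adjusted p = 0.0641). With a pseudocount of 0.1 FPKM in place of 1, 3 members passed.

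Within single genotypes, the ratio of 25 to 15 °C stood out in daf-2. There 5 of the 7 kept members were higher at 25 °C by at least 1 log2 unit, against 11.7% of all kept genes, and none was lower, against 3.72%. The count was 2 with a pseudocount of 5 FPKM and 3 after median centring. The 5 were sod-3 at 9.02-fold (7.75 to 10.5), ctl-3 at 3.25-fold (2.52 to 4.18), sod-4 at 2.97-fold (2.18 to 4.11), ctl-1 at 2.33-fold (1.88 to 2.90) and sod-1 at 2.15-fold (2.002 to 2.30). For sod-2 and ctl-2 the daf-2 ratios were 1.67 (1.505 to 1.86) and 1.62 (1.52 to 1.72). The sod-5 ratio was 102 (27.7 to 846), from 180 read pairs at 25 °C and 2 at 15 °C. In the other 4 genotypes 0 of the 7 kept members were higher or lower by 1 log2 unit. The share of all kept genes higher at 25 °C was 10.2% in the daf-16 double mutant, 10.1% in the math-33 double mutant, 6.63% in math-33 and 13.3% in N2. The share lower at 25 °C was 4.19% in the daf-16 double mutant, 3.27% in the math-33 double mutant, 6.73% in math-33 and 3.82% in N2.

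In those other genotypes sod-3 was still higher at 25 °C, 2.30-fold in the daf-16 double mutant (1.33 to 4.24), 2.14-fold in the math-33 double mutant (1.52 to 3.05), 1.47-fold in math-33 (0.944 to 2.32) and 1.69-fold in N2 (1.05 to 2.73). In N2 ctl-3 was 2.23-fold higher at 25 °C (1.52 to 3.26), while sod-1 and ctl-2 were at 1.02 (0.926 to 1.12) and 1.004 (0.926 to 1.09). The sod-4 level was lower at 25 °C in the daf-16 double mutant, at 0.666 (0.467 to 0.946), and higher in the math-33 double mutant, at 1.46 (1.09 to 1.97). The sperm sums were higher and the molting sums lower at 25 °C in each of the 5 genotypes. In daf-2 sperm summed to 486 FPKM at 25 °C and 274 FPKM at 15 °C, and molting to 1208 FPKM at 25 °C and 1339 FPKM at 15 °C. The intestine genes there summed to 3132 FPKM at 25 °C and 6235 FPKM at 15 °C, and the vitellogenins to 2772 FPKM at 25 °C and 1911 FPKM at 15 °C. At an adjusted p under 0.05 in the limma temperature contrast, 14.6% of all kept genes were higher and 4.68% lower. Of the markers, 5 of 5 vitellogenins and 17 of 22 sperm genes were higher and 3 of 8 intestine genes lower. The part of these markers in the temperature differences was not tested.

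**Figure D3:**
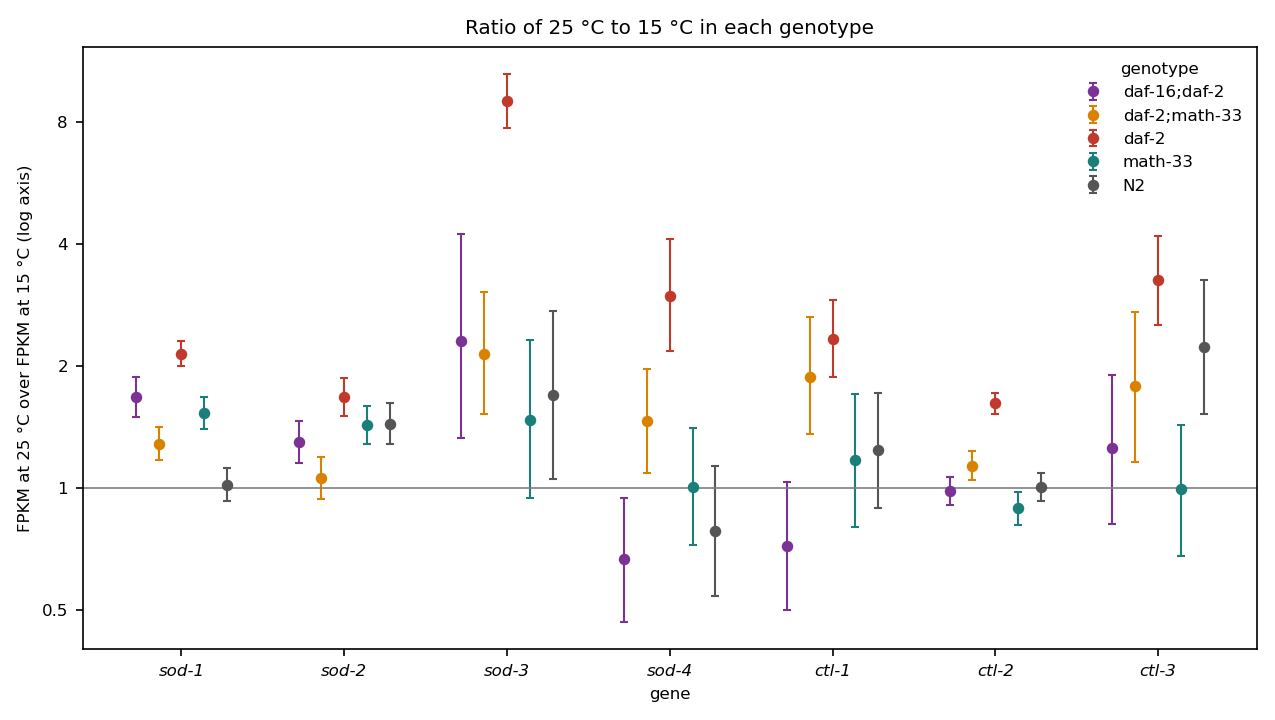
Ratio of FPKM at 25 °C to FPKM at 15 °C (log axis) for each gene that passed the expression filter, by genotype, with exact 95% counting intervals. The line marks 1, and sod-5 is left out because most of its libraries were at or near 0. The daf-2 ratio is the highest of the 5 genotypes for every gene drawn, from 1.62 for ctl-2 to 9.02 for sod-3.

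Summed over each family, the dismutase FPKM was 216 in the daf-16 double mutant, 246 in the math-33 double mutant, 588 in daf-2, 293 in math-33 and 209 in N2 at 25 °C. At 15 °C it was 146 in the daf-16 double mutant, 196 in the math-33 double mutant, 219 in daf-2, 199 in math-33 and 183 in N2. The daf-2 library at 25 °C thus held 2.72 times the dismutase FPKM of the daf-16 double mutant and 2.39 times that of the math-33 double mutant. Of the dismutase sum, sod-3 made up 2.32% in the daf-16 double mutant, 4.85% in the math-33 double mutant and 26.1% in daf-2 at 25 °C. The share of sod-2 was 33.5% in the daf-16 double mutant, 25.4% in the math-33 double mutant and 14.1% in daf-2. Both manganese genes together came to 35.8% in the daf-16 double mutant, 30.3% in the math-33 double mutant and 40.2% in daf-2, a narrower range than that of sod-3 alone.

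The catalase FPKM was 65.9 in the daf-16 double mutant, 70.6 in the math-33 double mutant, 131 in daf-2, 46.4 in math-33 and 62.9 in N2 at 25 °C. At 15 °C it was 67.5 in the daf-16 double mutant, 59.4 in the math-33 double mutant, 75.5 in daf-2, 51.0 in math-33 and 59.7 in N2. Both catalase minima were in math-33. The math-33 strain at 25 °C was above N2 in the dismutase sum, at 1.40 times its level, and below it in the catalase sum, at 0.739.

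**Figure D4:**
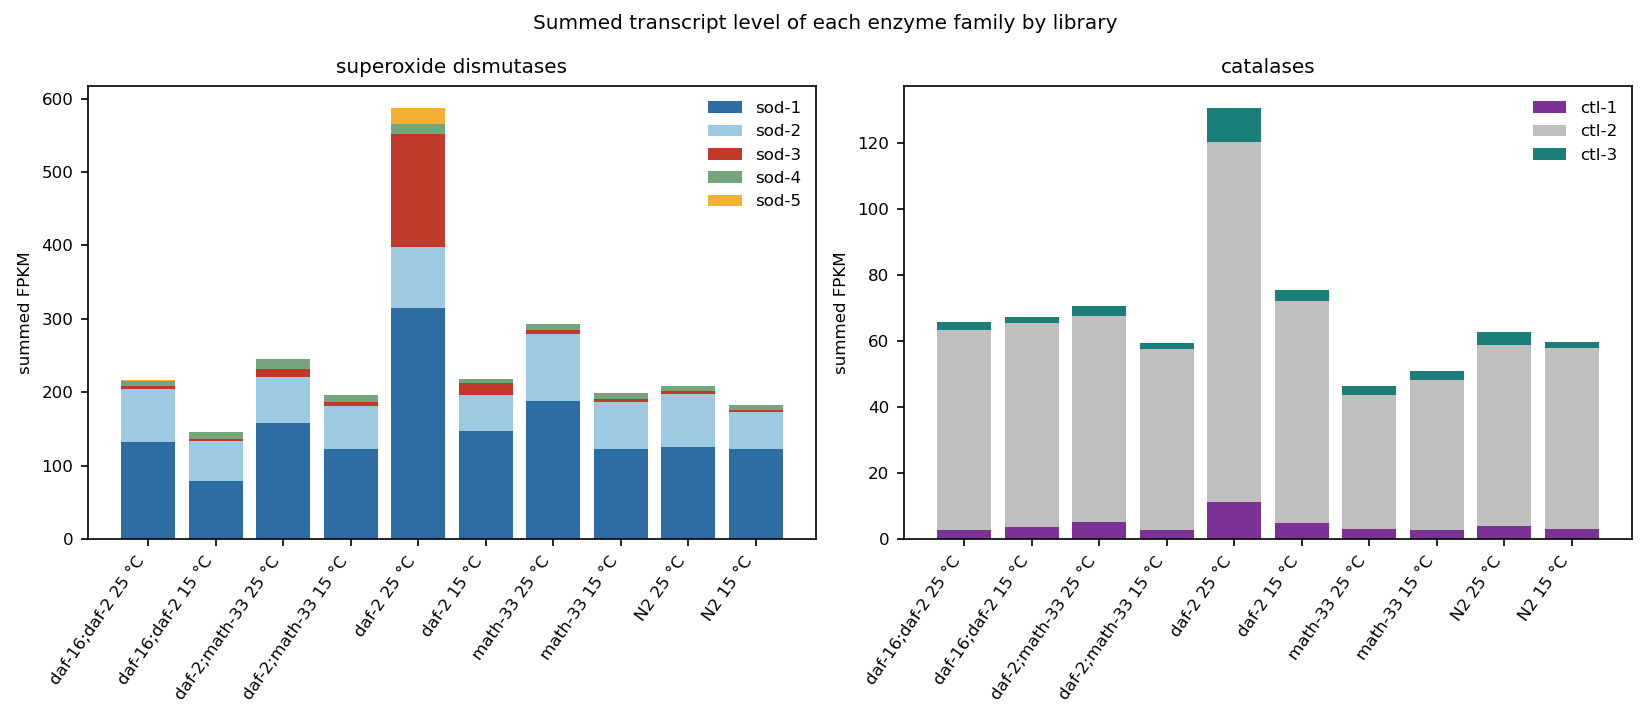
Summed FPKM of the dismutase genes (left) and catalase genes (right) in each of the 10 libraries, with bars stacked by gene and 25 °C left of 15 °C within a genotype. Bars are single libraries without error bars. The daf-2 library at 25 °C has the tallest bar in both panels, 588 and 131 FPKM, and sod-3 is a wide band there.

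The genes whose log2(FPKM + 1) followed these patterns most closely were looked up among 14698 kept genes with entries of at least 200 bases, by Pearson's r over the same 10 libraries, as a description. For sod-3 they were idhg-2, an isocitrate dehydrogenase subunit gene (r = 0.980), T28F4.6 (r = 0.975) and B0284.1 (r = 0.974). At 25 °C idhg-2 was at 39.5 FPKM in the daf-16 double mutant, 40.6 FPKM in the math-33 double mutant and 79.9 FPKM in daf-2. Without the daf-2 library at 25 °C, the r values with sod-3 were 0.908, 0.893 and 0.932 over 9 libraries. For ctl-1 they were the receptor gene sru-40 (r = 0.972), maa-1 (r = 0.971) and Y26G10.7 (r = 0.959), and the values without that library were 0.890, 0.891 and 0.828. For sod-5 they were C27H5.2 (r = 0.966), D1086.9 (r = 0.964) and C24A3.4 (r = 0.963). These sod-5 values rest largely on the single library, since without it they were 0.818, 0.432 and 0.532. Outside daf-2 at 25 °C some of these genes were low. B0284.1 was at 16.1 FPKM there and at most 1.39 FPKM elsewhere. For D1086.9 these values were 75.9 and 1.52 FPKM, and for Y26G10.7 8.10 and 1.41 FPKM. Spearman's rho ran from 0.487 (D1086.9 with sod-5) to 0.903 (T28F4.6 with sod-3). All genes were picked with that library included, so the values without it are no separate check. The points share libraries, so these coefficients carry no test.

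The same threshold was applied to lists of other genes related to oxidants. A peroxide removal list held 12 genes, for peroxiredoxins, glutathione peroxidases and a methionine sulfoxide reductase. The last repairs oxidized methionine and does not itself remove peroxide. In the daf-16 double mutant over daf-2 at 25 °C the median difference of the 12 was -0.12. There 1 gene was lower and 1 higher by 1 log2 unit. These counts lay near the shares of all kept genes, 7.06% lower and 5.09% higher. The lower one was gpx-6, a glutathione peroxidase gene, at 2.94 FPKM in the daf-16 double mutant and 8.34 FPKM in daf-2. The higher one was msra-1, the methionine sulfoxide reductase gene, at 122 FPKM in the daf-16 double mutant and 30.8 FPKM in daf-2. In the math-33 double mutant at 25 °C, 1764 of the 16085 kept genes were higher than in daf-2 by 1 log2 unit. The share lower was 5.13%. Of the 12 genes msra-1 was also the 1 past the threshold there, higher at 86.0 FPKM. It was thus lowest in daf-2 of these strains, opposite in direction to the dismutases and catalases.

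At 1 log2 unit, 7.06% of all kept genes were lower and 5.09% higher in the daf-16 double mutant than in daf-2 at 25 °C. Of 14 kept thioredoxin and glutathione genes, 2 were lower there, and none was higher. They were the glutathione S-transferase genes gst-10, at 143 FPKM in the daf-16 double mutant and 419 FPKM in daf-2, and gst-4, at 33.2 FPKM in the daf-16 double mutant and 67.7 FPKM in daf-2. In the math-33 double mutant gst-10 was at 172 FPKM, the 1 gene of the 14 past the threshold, against 5.13% of all kept genes lower. Another list held dual oxidases, which make hydrogen peroxide at the cuticle, and their partners. Of its 4 kept genes the partner gene doxa-1 was lower, at 10.4 FPKM in the daf-16 double mutant and 22.0 FPKM in daf-2. None of the 4 passed the threshold in the math-33 double mutant. Of 11 peroxins, which build the peroxisome and import its enzymes such as CTL-2, 0 were higher or lower by 1 log2 unit in either double mutant. No gene of these lists passed limma in the 2 genotype contrasts with daf-2. At an unadjusted p under 0.05 the peroxide removal list held 4 genes in the contrast of the daf-16 double mutant with daf-2, beside 12.2% of all kept genes, and 3 in that of the math-33 double mutant with daf-2, beside 15.0%. The thioredoxin and glutathione list held 1 and 2 in these contrasts, the dual oxidase list 1 and 0, and the peroxins 0 and 1.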

How the data were processed

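The deposited table gives FPKM per transcript entry, computed by the authors. The submitters' processing notes name STAR, HOMER, edgeR and the build ce10, with roles and versions not given in the sources used here. It has 47467 entries, of which 1104 carry no gene name. These held 1.723 to 1.974% of summed FPKM and were left out. Depth was recovered from steps of the low FPKM values in entries of 300 to 1500 bases. Read pairs were set to the recovered reads divided by 2, rounded up, since many read counts were odd. Among counts of at most 100, even ones were 1.28 to 1.45 times as frequent as odd ones per library. Division by 2 is thus an assumption, on which pair counts and intervals rest. These pairs gave exact 95% intervals (Clopper-Pearson for ratios, Poisson for levels), and a floor of 3 pairs. Values were analysed as log2(FPKM + 1). Genes that reached 1 FPKM in 2 or more libraries were kept. limma 3.58.1 in R 4.3.3 used a mean-variance trend and was run on simulated data with added genotype effects. Those data held no genotype-specific temperature response, so they cannot show how the fit performs where such responses exist. The model assumes 1 temperature response for all genotypes. Python 3.11.15 with pandas 2.3.3 and scipy 1.17.1 did the rest. Genes named beside the members were the 3 closest in pattern to sod-3, sod-5 and ctl-1, and list genes at least 1 log2 unit apart in either double mutant over daf-2 at 25 °C. The members and lists (peroxide removal, thioredoxin and glutathione, dual oxidases, peroxins, sperm, vitellogenins, molting, germline and intestine) were chosen with earlier results of these data known. Alternatives changed the pseudocount, filter, scaling, trend and temperature term, or left out a library. No sequence is shown.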

Additional observations from a re-analysis of the deposited data

Results flagged for a closer look

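In 5 cases a gene differed in opposite directions between groups, in a search of the 8 members over 6 genotype comparisons. Both counting intervals had to exclude 1, on opposite sides. None of these differences was tested, since each rests on single libraries. The rule was not applied to all kept genes, so no share stands beside the count of 5. The sod-4 ratio of the daf-16 double mutant to daf-2 was 0.420 at 25 °C and 1.87 at 15 °C, so the ratio at 25 °C was 0.224 of that at 15 °C. The sod-4 ratio of daf-2 to N2 was 2.57 at 25 °C and 0.677 at 15 °C, a 3.79-fold difference. In the comparison of the math-33 double mutant with the daf-16 double mutant, sod-4 was higher at 25 °C than at 15 °C in the math-33 double mutant and lower in the daf-16 double mutant, so the ratio was 2.20-fold higher at 25 °C. All 3 sod-4 cases involve levels of 4.91 to 14.6 FPKM, and they are not independent. The first 2 share the daf-2 libraries, and the first and the third share the daf-16 double mutant libraries. The shorter sod-4 entry gave 0.506 at 25 °C and 2.04 at 15 °C for the daf-16 double mutant over daf-2. For daf-2 over N2 it gave 2.36 at 25 °C and 0.724 at 15 °C. Its ratio of 25 to 15 °C was 0.725 in the daf-16 double mutant and 1.59 in the math-33 double mutant. No intervals were computed for that entry, so whether it meets the rule was not tested. The sod-2 ratio of the math-33 double mutant to daf-2 was 0.752 at 25 °C and 1.19 at 15 °C, and the quotient was 0.631. The ctl-3 ratio of math-33 to N2 was 0.704 at 25 °C and 1.58 at 15 °C, and the quotient was 0.446.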

How the results depend on the processing

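No paired analysis was possible because each group has 1 library and all carry the same replicate number, which therefore cannot serve as a block. The limma temperature contrast is within genotypes, since genotype is a term of the fit. At 25 °C the count of kept members lower by 1 log2 unit in the daf-16 double mutant than in daf-2, 5, stayed within 1.5 times under each alternative. For the math-33 double mutant over daf-2 the count of 2 became 1 with a pseudocount of 5 FPKM or a filter of 5 FPKM, and 4 with median centring. For the math-33 double mutant over the daf-16 double mutant at 25 °C the count of 1 became 2 with a pseudocount of 0.1 FPKM and 0 with a pseudocount of 5 FPKM, median centring or quantile normalization. At 15 °C it became 0 under the last 3. For daf-2 over N2 at 25 °C the count of 5 became 2 with a pseudocount of 5 FPKM. For 25 over 15 °C in daf-2 the count of 5 became 2 with a pseudocount of 5 FPKM and 3 with median centring or quantile normalization. In the daf-16 double mutant, the math-33 double mutant and N2 it became 1 with a pseudocount of 0.1 FPKM. The limma count for temperature, 2, became 0 with median centring, no filter or no trend, and 1 with quantile normalization. It became 3 with a pseudocount of 0.1 FPKM or with only entries of at least 200 bases. When a library was left out it was 0 to 1. With a library left out, the limma count ranged from 0 to 1 for the daf-16 double mutant against daf-2, the math-33 double mutant against daf-2 and daf-2 against N2. The 1 appeared without the daf-2 library at 15 °C, which leaves daf-2 with 1 library, assumed to vary like the others. Over 20 settings the limma adjusted p of sod-3 ranged from 0.0172 to 0.635 for the daf-16 double mutant against daf-2 and from 0.0231 to 0.822 for the math-33 double mutant against daf-2. Of 1105 limma member differences under the alternatives, 45 changed sign, and 0 of them had an unadjusted p under 0.05 before. With median centring ctl-2 at 25 against 15 °C changed sign, to -0.03, and ctl-3 in math-33 against N2 to -0.08. The cause of the changed counts was not tested. Depth limits sod-5 most, with 0 to 7 read pairs in 9 libraries.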
